A study of Mus musculus with 12 samples.

Results

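10 core genes of the circadian clock, the period genes Per1, Per2 and Per3, the cryptochromes Cry1 and Cry2, the activator Clock, the nuclear receptors Nr1d1 and Nr1d2 (REV-ERB alpha and beta) and the PAR bZIP factors Dbp and Tef, were followed in mouse airway organoids in which cells had been destroyed by a laser. They were taken by gene name from a table of normalized counts for 55401 genes, and all 10 were among the 13792 genes tested. The organoids were grown from epithelial cells isolated from the lungs of C57BL/6J wild-type mice of both sexes aged 10 to 14 weeks. The study describes them as mimicking proximal airway epithelium. The cells of both groups carried a lentiviral histone 2A-mCherry fusion under the p63 promoter, which marks basal cells. In the laser-treated (ablation) group, 10 neighboring cells in each of the 45 organoids of a dish were ablated with a femtosecond laser, and RNA of the whole dish was collected 4.5 h later; in the control group, dishes of 45 organoids were handled alike without ablation. Each group held 6 dishes, numbered 1, 3, 4, 5, 6 and 7, and an ablation and a control dish with the same number formed a pair of the same passage, culture day and date. The labels give pair 1 as passage P2+14 on culture day 14 (8 July) and pair 3 as P2+14 on day 20 (14 July). Pair 4 was P2+15 on day 14 (26 July) and pair 5 P2+15 on day 15 (27 July). Pairs 6 and 7 were P2+16 on days 18 and 19 (23 and 24 August). The hour of the day at which a dish was collected is not among the labels. Between pairs of the same passage, hour, date and culture day therefore cannot be told apart. Between pairs of different passages, hour, date and passage cannot be told apart, and culture day or the run of library numbers (library set) differed as well. Nothing in the labels says that pairs came from different mice, and p-values therefore measure the spread between dishes. Controls 4, 6 and 7 were grouped by their treatment label, although their titles contain the word ablation.

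The circadian clock is a feedback loop of transcription that runs with a period of about a day in nearly every cell type, the airway epithelium included. CLOCK pairs with BMAL1 (gene Arntl) and binds E-boxes in the promoters of the Per, Cry, Nr1d and Dbp genes, PER and CRY proteins then inhibit CLOCK and BMAL1, and the REV-ERB receptors repress Arntl and Cry1 through ROR elements. DBP, TEF and HLF bind D-boxes and are read as clock outputs, and in a running clock Dbp and the Nr1d genes peak well before Cry1 and Arntl. Per1 and Per2 can in addition be switched on acutely by stress hormones, serum and cAMP signals.

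The promoters of 7 members are shown: the 6 with the largest SD between pairs and Per1, which had the smallest p after ablation. They are 300-base windows of RefSeq (GRCm38.p6), from 250 bases before to 50 bases after a transcript start, written 5′ to 3′ on the strand of the gene. Capitals mark every match, on either strand, to an E-box (CACGTG), an E′-box (CACGTT, which reads AACGTG on the other strand), a D-box (TTATGTAA or TTACGTAA), a ROR element core (TAGGTCA) or a cAMP response element (TGACGTCA).
Dbp, chr7:45704997-45705296, plus strand: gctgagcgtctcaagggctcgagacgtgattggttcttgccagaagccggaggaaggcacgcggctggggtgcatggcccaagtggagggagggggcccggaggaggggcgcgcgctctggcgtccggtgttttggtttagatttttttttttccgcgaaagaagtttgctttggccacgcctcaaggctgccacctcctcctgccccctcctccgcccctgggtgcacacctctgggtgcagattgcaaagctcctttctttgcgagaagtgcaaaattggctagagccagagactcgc
Tef, chr15:81802423-81802722, plus strand: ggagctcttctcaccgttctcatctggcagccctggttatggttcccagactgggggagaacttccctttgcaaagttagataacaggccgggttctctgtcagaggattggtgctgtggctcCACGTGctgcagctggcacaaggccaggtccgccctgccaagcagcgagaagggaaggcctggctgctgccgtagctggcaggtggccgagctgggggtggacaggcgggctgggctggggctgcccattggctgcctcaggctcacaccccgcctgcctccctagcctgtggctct
Nr1d1, chr11:98775328-98775627, minus strand: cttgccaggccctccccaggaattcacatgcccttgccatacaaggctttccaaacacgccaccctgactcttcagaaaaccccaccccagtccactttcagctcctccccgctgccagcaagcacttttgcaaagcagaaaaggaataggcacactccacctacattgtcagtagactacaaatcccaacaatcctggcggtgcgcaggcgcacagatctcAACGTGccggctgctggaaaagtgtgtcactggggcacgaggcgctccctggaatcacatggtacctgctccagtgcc
Nr1d2, chr14:18239057-18239356, minus strand: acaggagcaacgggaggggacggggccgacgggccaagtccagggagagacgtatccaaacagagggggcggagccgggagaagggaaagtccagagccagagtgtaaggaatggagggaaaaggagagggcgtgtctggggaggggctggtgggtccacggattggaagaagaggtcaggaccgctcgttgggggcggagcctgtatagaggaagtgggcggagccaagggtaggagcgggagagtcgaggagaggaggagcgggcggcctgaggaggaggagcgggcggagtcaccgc
Per3, chr4:151044616-151044915, minus strand: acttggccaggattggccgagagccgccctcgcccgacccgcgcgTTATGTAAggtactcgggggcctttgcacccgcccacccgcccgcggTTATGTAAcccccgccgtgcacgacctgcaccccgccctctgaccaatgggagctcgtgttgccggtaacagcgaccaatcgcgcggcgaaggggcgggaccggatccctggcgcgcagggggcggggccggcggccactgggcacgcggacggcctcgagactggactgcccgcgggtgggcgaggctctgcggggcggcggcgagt
Cry1, chr10:85185005-85185304, minus strand: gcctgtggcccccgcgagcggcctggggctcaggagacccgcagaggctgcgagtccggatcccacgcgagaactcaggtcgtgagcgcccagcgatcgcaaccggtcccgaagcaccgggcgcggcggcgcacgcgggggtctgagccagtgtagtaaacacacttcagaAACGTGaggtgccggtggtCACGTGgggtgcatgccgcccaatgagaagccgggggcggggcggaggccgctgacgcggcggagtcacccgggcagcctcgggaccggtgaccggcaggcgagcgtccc
Per1, chr11:69098699-69098998, plus strand: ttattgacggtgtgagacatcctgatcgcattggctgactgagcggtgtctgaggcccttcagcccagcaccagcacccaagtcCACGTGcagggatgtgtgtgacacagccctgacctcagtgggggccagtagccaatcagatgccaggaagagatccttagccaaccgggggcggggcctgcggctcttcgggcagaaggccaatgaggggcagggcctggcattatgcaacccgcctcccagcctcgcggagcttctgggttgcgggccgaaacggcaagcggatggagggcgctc

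The E-box lay 166 bases before the start in Per1, 127 in Tef and 60 in Cry1, which also had an E′-box at 79 bases. Nr1d1 carried an E′-box 28 bases before its start, and Per3 carried D-boxes at 205 and 158 bases. The windows of Dbp and Nr1d2 held none of these letters. Per1 and Tef each have a second RefSeq window, of which that of Per1 (chr11:69099902-69100201) held none of them and that of Tef (chr15:81811164-81811463) an E-box 138 bases before its start. Of 32851 RefSeq windows of the same length, 7.15% held an E-box, 4.68% an E′-box, 1.06% a D-box, 2.61% the ROR core and 1.79% the cAMP response element. RefSeq windows were found for 9 of the 10 members (13 windows); E-boxes stood in windows of 3 of these genes (Cry1, Per1 and Tef), E′-boxes in 3 (Cry1, Cry2 and Nr1d1) and D-boxes in Per3, whereas no member window held the ROR core or the cAMP response element. Among the 16 other clock genes with a window, the ROR core was found in Arntl and Nfil3 and an E-box in Bhlhe41, Ciart and Cipc. Rorb had an E′-box, Timeless a D-box and Hlf the cAMP response element. A match of letters is a description and does not show that a factor was bound.

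All 10 members were expressed. Normalized counts summed to between 27297950 and 28504390 per library over all genes. Per kilobase of gene model and averaged over the 12 dishes, Nr1d2 had the highest level, 942 ± 159 normalized counts per kilobase (SD, n = 12), followed by Tef (571 ± 116), Clock (562 ± 49.1), Nr1d1 (516 ± 121), Dbp (380 ± 112) and Cry1 (244 ± 64.2). Per2 (140 ± 17.3), Per1 (132 ± 20.3), Per3 (93.3 ± 23.1) and Cry2 (50.0 ± 5.63) were the lowest. The ranges of 1 SD around neighbors in this order overlapped from Tef to Cry1 and from Per2 to Per3 and did not overlap from Nr1d2 to Tef, from Cry1 to Per2 and from Per3 to Cry2. Dbp shares 539 bases with Sphk2 and Nr1d1 shares 263 bases with Thra on the opposite strand, and the strand setting of the read counting is not given in the sources used here.

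The markers were mainly those of airway basal cells. Krt5, a keratin of basal cells, averaged 276858 normalized counts. Of the 4 secretory markers, the club cell enzyme gene Cyp2f2 averaged 49001, whereas Scgb1a1 (3.30), Scgb3a2 (13.6) and Muc5b (12.6) were close to 0, as was Foxj1 (9.87), the regulator of ciliated cells. The 2 general epithelial markers summed to 26025 to 31425 normalized counts per dish. The 4 ciliated markers summed to 25.7 to 58.3, the 7 stromal markers to 18 to 48.3, the 3 endothelial markers to 2.96 to 14.3 and the 3 smooth muscle markers to 0 to 5.84, with the endothelial receptor gene Kdr at 0 in all 12 dishes. The 4 immune markers summed to 133 to 222, most of it Cd68, which other cells with lysosomes also express.

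For 8 of the 10 genes, all but Per1 and Clock, the spread between pairs was larger than that within pairs, as it was for 66.8% of all genes tested. The clock output gene Dbp was at 500 and 444 normalized counts in the ablation and control dishes of pair 3, and between 1027 and 1497 in the other 10 dishes. In a limma F test across the 6 pairs with condition in the model, 7 of the 10 members differed between pairs at an adjusted p under 0.05, beside 29.6% of all genes tested. Nr1d1 (adjusted p = 3.71e-05), Dbp (6.17e-05), Nr1d2 (0.000135) and Tef (0.000257) ranked 12, 15, 22 and 74 among the 13792 genes by the F statistic. Cry1 (0.000594), Per3 (0.00405) and Per2 (0.0243) also passed, and Cry2 (0.0617), Clock (0.129) and Per1 (0.153) did not. The call of Per2 was lost without pair 1 (0.112), without pair 5 (0.056) and with plain eBayes (0.074), and that of Per3 with plain eBayes (0.0642). Since RNA was taken from whole dishes, fewer cells that express a gene and less RNA per cell cannot be told apart.

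**Figure D1:**
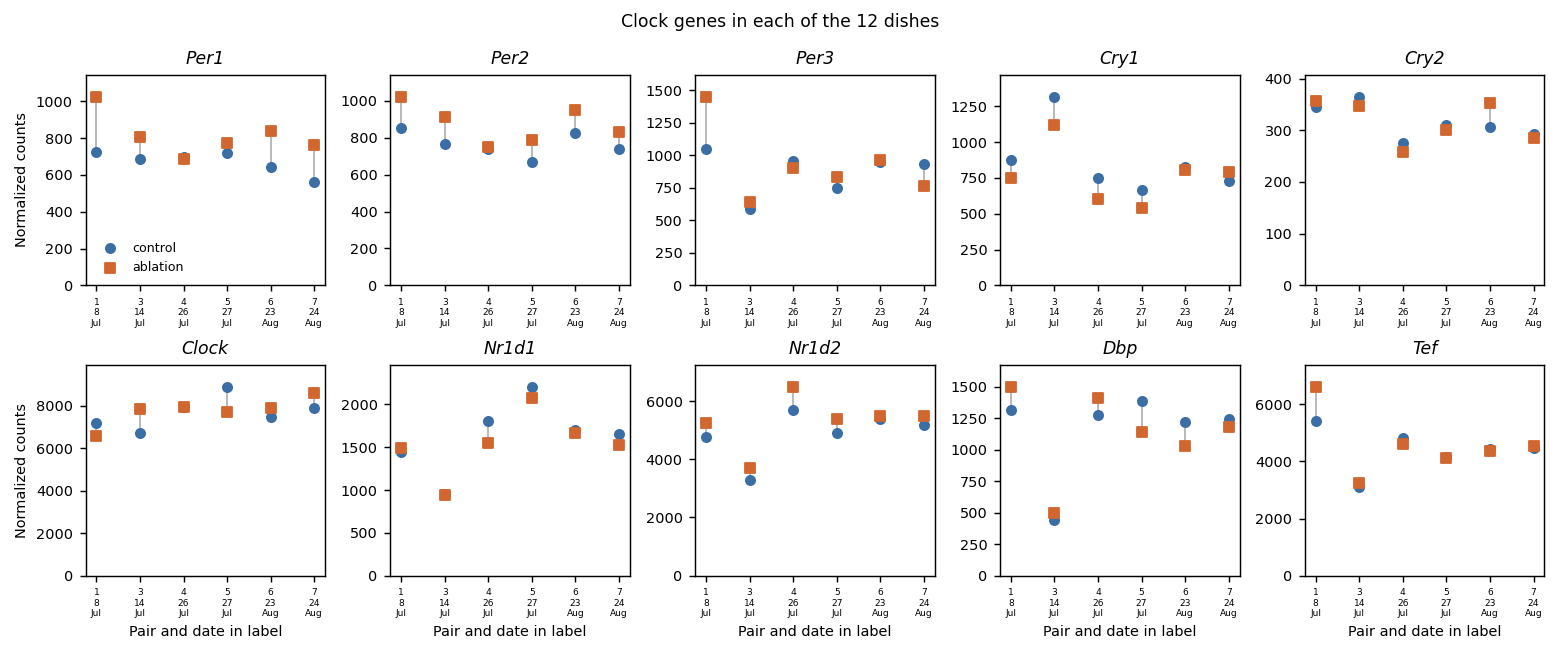
Normalized counts (linear axes from 0) of the 10 clock genes in each dish, by pair number and the date in the labels; circles are control dishes, squares ablation dishes, and grey lines join the dishes of a pair. Both dishes of pair 3 stand low for Dbp (500 and 444), Tef, Per3, Nr1d1 and Nr1d2 and high for Cry1 (1123 and 1315).

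Among the PAR bZIP output factors, Tef was at 3234 and 3111 normalized counts in pair 3, at 6601 and 5427 in pair 1 and between 4136 and 4824 in the remaining 8 dishes. The dishes of pair 3 were the lowest and those of pair 1 the highest for this gene. Hlf, the third member of the family, was at 1520 and 1156 in pair 3. Its control dish in pair 3 was the lowest of all 12, and its highest value was 2042. The Hlf level differed between pairs (adjusted p = 0.00441).

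The REV-ERB repressors were likewise lowest in pair 3. Nr1d1 was at 945 and 956 normalized counts there and at 2072 and 2201 in pair 5, the highest pair, with the other 8 dishes between 1450 and 1808. Nr1d2 was at 3715 and 3283 in pair 3 and between 4781 and 6486 elsewhere, with its highest mean, 6101, in pair 4. For both genes the 2 dishes of pair 3 lay below every other dish. Arntl, which encodes BMAL1 and is repressed by these receptors, was at 1459 and 1330 in pair 3, above each of the other 10 dishes, which held 876 to 1283.

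Cry1, a repressor of CLOCK and BMAL1 that peaks late in the cycle, moved opposite to Dbp in pair 3. It was at 1123 and 1315 normalized counts in pair 3 and between 543 and 879 in the other dishes. Cry2, its paralog, was lower throughout, with 257 to 364 normalized counts, and the difference between its pairs did not pass the test. Per3 was at 639 and 588 in pair 3, below the range of the other dishes (745 to 1446), with both dishes of pair 1 at the top (1446 and 1045). Per1 and Per2, the period genes that respond to acute signals, showed no such step. Their means in pair 3 were 745 and 841 normalized counts, within the ranges of 663 to 875 and 730 to 938 over the other pairs. Clock, whose RNA cycles little in most tissues, ranged from 6558 to 8868 with a pair 3 mean of 7287.

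Pairs 1 and 3 were of the same passage and library set and were collected 6 days apart. In pair 3 against pair 1, 5 members fell, beside 9.59% of all genes tested, and 1 member rose, beside 11.5%. Dbp fell the furthest. Its log2 fold change was -1.57 (standard error 0.117, adjusted p = 3.46e-05), which is 2.97-fold lower. Per3 fell by 1.00 on the log2 scale (adjusted p = 0.000628), Tef by 0.92 (4.62e-05), Nr1d1 by 0.63 (0.000324) and Nr1d2 by 0.52 (0.000324). Cry1 rose by 0.58 (adjusted p = 0.00235), which is 1.5-fold. Per1 (-0.21, 95% confidence interval -0.47 to 0.04), Per2 (-0.16, -0.34 to 0.02), Clock (0.08, -0.11 to 0.28) and Cry2 (0.02, -0.23 to 0.27) did not pass the test.

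Of the 21 other clock genes tested, 3 rose in the same contrast, beside 11.5% of all genes, and 2 fell, beside 9.59%. The genes that rose were Ciart (log2 fold change 0.59, adjusted p = 0.00826), a further repressor of CLOCK and BMAL1, Arntl2 (0.53, 0.000592), a paralog of Arntl, and Arntl itself (0.50, 0.0063). Hlf was among those that fell, by 0.40 (0.0056). The D-box repressor Nfil3 had a log2 fold change of 0.75 that did not pass (adjusted p = 0.147), with a control dish of pair 3 (896) close to that of pair 1 (877) and ablation dishes at 1703 and 611. The median log2 fold change was -0.37 over the 10 members and -0.02 over the 21 other clock genes, against -0.00 over all genes.

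Other measures moved with pair 3 as well. The summed level of the 4 secretory markers, nearly all of it Cyp2f2, was 26215 and 31319 normalized counts in pair 3, the lowest of all dishes, against 34998 to 78627 in the others. The summed level of the 6 basal markers was 618053 and 599685 in pair 3 and 473583 to 606534 in the others. Nearly all of this sum is Krt5 and Krt14. Of the other basal markers, Ngfr (2095 in pair 3 against 2769 in the other pairs, as means) and Itga6 (15562 against 17069) were lower in pair 3, and Trp63 (9814 against 8447) and Dlk2 (793 against 690) were higher. Of the 8 immediate early genes, 7 had estimates above 0 in pair 3 against pair 1 (median log2 fold change 0.47). Crem (0.47, adjusted p = 0.0184) rose, as 11.5% of all genes did, and Sik1 fell by 0.39 (0.0315), as 9.59% did. Part of this contrast came from pair 1, which was the lowest pair for Fos, Fosb and Crem. Pair 3 was the highest for Egr1, Nr4a1, Crem and Ier2 and the lowest for Sik1. The ablation dish of pair 3 had the lowest mitochondrial share of counts (1.289%), while its control dish (1.435%) lay within the range of the rest. The part of these measures in the difference of the clock genes was not tested.

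With pair 3 left out, 5 of the 10 members still differed between the other 5 pairs, beside 16.2% of all genes. These were Nr1d1 (adjusted p = 0.00466), Tef (0.0055), Per2 (0.0341), Cry1 (0.0422) and Per3 (0.0454). Nr1d2 was just above the threshold (0.0504), and Dbp no longer passed (0.216), its pair means ranging from 1125 to 1406 without pair 3.

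The remaining passages gave pairs collected on consecutive dates. In pair 5 against pair 4, no member passed the adjusted threshold and 0.0145% of all genes did. At an unadjusted p under 0.05 there were 3 members, beside 11.5% of all genes. Nr1d1 had a log2 fold change of 0.35 (95% confidence interval 0.19 to 0.51, adjusted p = 0.15), Nr1d2 of -0.24 (-0.38 to -0.11, 0.224) and Tef of -0.19 (-0.36 to -0.02, 0.389). The 2 REV-ERB genes thus had estimates of opposite sign, whereas both were lower in pair 3 than in pair 1. These pairs fall into different library sets, so that set and date cannot be told apart here.

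In pair 7 against pair 6, which share a library set, 1.84% of all genes passed and no member did, either at the adjusted or at the unadjusted threshold. The intervals were narrow for Nr1d2 (-0.02, -0.16 to 0.11), Tef (0.04, -0.13 to 0.20) and Nr1d1 (-0.08, -0.24 to 0.08), and wider for Dbp (0.11, -0.15 to 0.36). Wee1, a cell cycle kinase under clock control, was the only other clock gene to pass (log2 fold change -0.44, adjusted p = 0.0153).

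**Figure D2:**
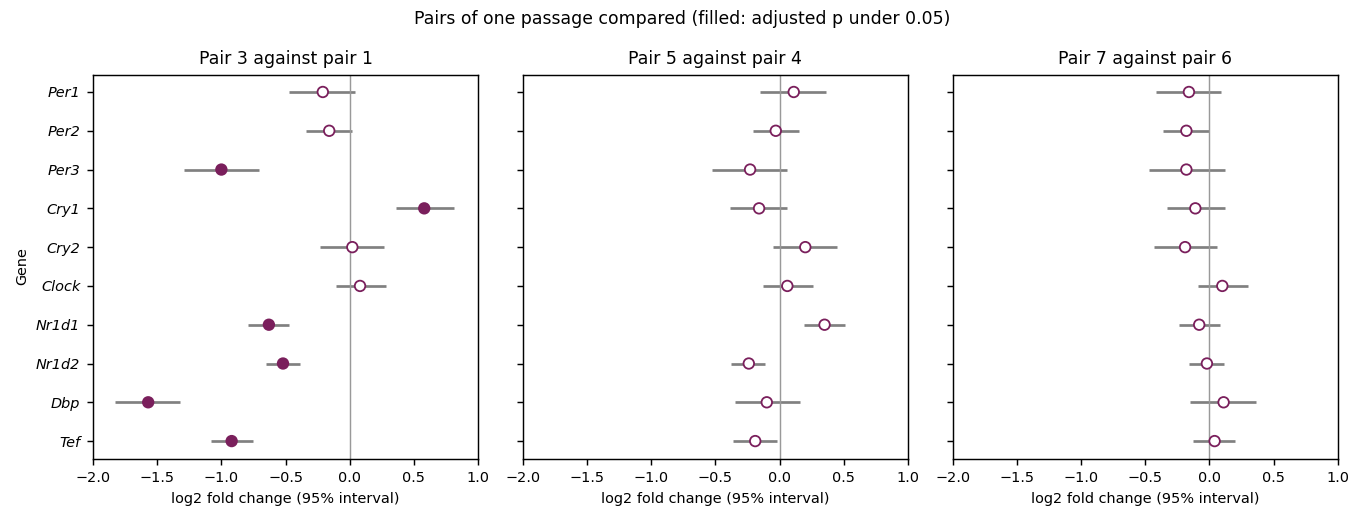
Log2 fold change of the 10 clock genes between the 2 pairs of each passage (points) with 95% confidence intervals (bars) from the limma fit with pair and condition; filled points have an adjusted p under 0.05. Dbp stands at -1.57 in pair 3 against pair 1 and at -0.10 and 0.11 in the pairs collected on consecutive dates.

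The spread of each gene can be put on a common scale. Over all genes tested, the SD of the 6 pair means had a median of 0.14 log2 units and the SD within pairs a median of 0.11. Over the 10 members the medians were 0.28 and 0.10. Dbp had the largest SD between pairs (0.59, above that of 97.8% of genes tested), followed by Nr1d1 (0.39) and Cry1 (0.35), while Nr1d2 had the smallest SD within pairs (0.04). Much of this came from pair 3: over the other 5 pairs the SD was 0.13 for Dbp, 0.20 for Nr1d1, 0.19 for Cry1, 0.20 for Tef, 0.11 for Nr1d2 and 0.24 for Per3. Over all 6 pairs, differences between pairs made up 97.6% of the variation of Nr1d1, 96.8% for Dbp, 95.2% for Tef and 93.3% for Nr1d2, against a median of 67.6% over all genes. Per1 was the member with the lowest share, 35.3%, and the one in which condition had the largest, 43.8%.

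**Figure D3:**
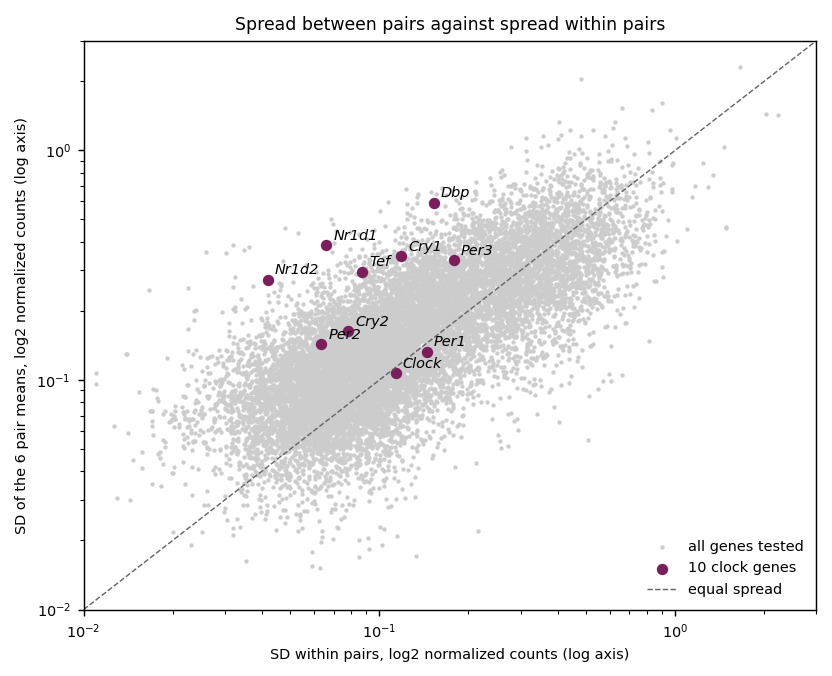
SD of the 6 pair means against SD within pairs, both in log2 normalized counts on log axes, for all genes tested (grey) and the 10 clock genes (purple); the dashed line marks equal spread. Dbp, Nr1d1, Nr1d2 and Tef lie far above the line, and Per1 and Clock lie slightly below it. Pair means average the dishes of a pair, so the line does not mark the absence of a pair effect.

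Condition made up a smaller share of the variation than pairs did in 9 of the 10 members, all but Per1, as in 95.3% of all genes. Pairs have more degrees of freedom than condition has, so their share would be the larger in most genes without any effect. The comparison of shares therefore does not show that pairs mattered more than ablation. Per1 had the largest positive estimate among the members. It was at 687 to 1023 normalized counts (median 788) after ablation and 563 to 727 (median 692) in the control, and the ranges overlapped. Per1 was higher after ablation in 5 of 6 pairs, by 0.10 to 0.49 on the log2 scale, and in pair 4 the difference was -0.02. Per2 was at 749 to 1021 (median 873) after ablation and 668 to 856 (median 754) in the control, and was higher in 6 of 6 pairs, by 0.02 to 0.25. Nr1d2 was also higher in 6 of 6 pairs, by 0.03 to 0.18, with 3715 to 6486 (median 5438) after ablation and 3283 to 5715 (median 5056) in the control. Cry1 and Nr1d1 were lower in 5 of 6 pairs each, with differences of -0.31 to 0.11 and -0.22 to 0.05. Among all genes, 5.17% were higher in all 6 pairs and 4.63% lower in all 6.

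None of these differences passed the adjusted threshold. In the limma model with condition and library set, 0% of all genes passed, and 7.85% had an unadjusted p under 0.05. Of the members, Per1 (log2 fold change 0.27, standard error 0.0805, unadjusted p = 0.00502, adjusted p = 0.53) and Per2 (0.19, 0.0839, 0.0401, 0.629) were below that level. With the pair as a block, 1.09% of all genes passed (150 genes, and 8 without pair 4) and 17.6% had an unadjusted p under 0.05. No member passed, and 4 had an unadjusted p under 0.05: Per1 (adjusted p = 0.0755), Per2 (0.0756), Nr1d2 (log2 fold change 0.12, adjusted p = 0.111) and Cry1 (-0.16, 0.184). When genes with low counts were also tested, Per1 passed in the model with the pair block (adjusted p = 0.0218). With the labels of pairs 4, 6 and 7 exchanged, as their control titles might be read, no gene passed and the estimates were 0.00 for Per1 and 0.06 for Per2. Under the treatment labels, the basal cell gene Trp63 was higher in the ablation dish in 6 of 6 pairs, as were 5.17% of all genes. It was at 8400 against 6559 normalized counts in pair 4, 9773 against 6443 in pair 6 and 9974 against 7543 in pair 7. The study reported Trp63 as raised from these same libraries and labels, so this is no independent check of the labels. The edgeR quasi-likelihood test on the whole reads recovered for 9 libraries called 0 genes, with 790 at an unadjusted p under 0.05.

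For the other members the pair block gave estimates near 0 with limits on their size. The log2 fold change was -0.02 for Dbp (95% confidence interval -0.17 to 0.13), 0.05 for Tef (-0.05 to 0.14), -0.07 for Nr1d1 (-0.16 to 0.02), 0.02 for Clock (-0.10 to 0.13), -0.00 for Cry2 (-0.14 to 0.14) and 0.07 for Per3 (-0.10 to 0.24). Without the block the interval for Dbp was -0.65 to 0.61. Over the 24 alternatives, estimates ranged from -0.01 to 0.24 for Per3, -0.00 to 0.19 for Tef, -0.09 to 0.09 for Nr1d1 and -0.10 to 0.11 for Dbp.

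**Figure D4:**
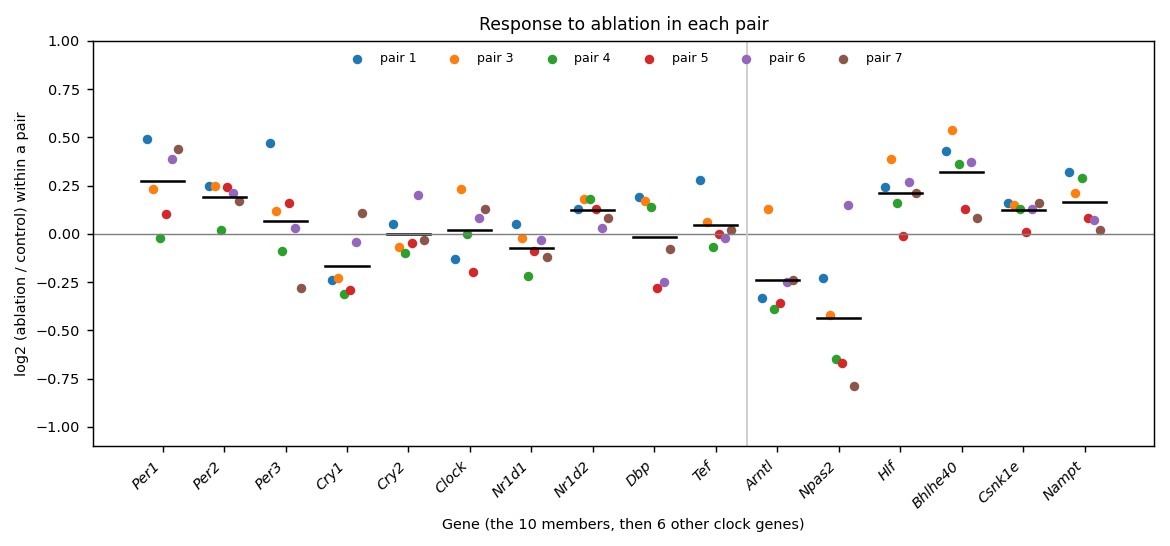
Log2 ratio of the ablation to the control dish within each pair (colored points) and the mean over the 6 pairs (black bars) for the 10 members and, right of the vertical line, 6 other clock genes. Per2, Nr1d2, Bhlhe40, Csnk1e and Nampt have all 6 points above 0, and Cry1, Nr1d1, Arntl and Npas2 have 5 of 6 below 0.

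Of the 21 other clock genes tested, Bhlhe40 passed in the model with the pair block. It encodes DEC1, a repressor that binds E-boxes and responds to many acute signals, and was at 3559 to 5073 normalized counts (median 4392) after ablation and 2464 to 4630 (median 3416) in the control. All 6 pairs had the higher value in the ablation dish. The log2 fold change was 0.32 (standard error 0.0559, adjusted p = 0.0209), and with the library set in place of the pair it did not pass (adjusted p = 0.629). Nor did it pass with the block once pair 4 was left out (0.31, adjusted p = 0.109), under plain eBayes (0.163), in edgeR on the complete pairs of recovered reads (0.207), or with pairs 4, 6 and 7 exchanged (0.05, adjusted p = 0.978). The activators Arntl and Npas2, a paralog of Clock, had estimates of -0.24 (adjusted p = 0.0817) and -0.43 (0.0947) with the block and were each lower in 5 of 6 pairs. Hlf had an estimate of 0.21 (0.062), Nampt, an enzyme of NAD synthesis under clock control, 0.16 (0.107) and the kinase gene Csnk1e 0.13 (0.12). When each pair was left out in turn, Arntl passed without pair 3 (-0.32, adjusted p = 0.0224), Npas2 without pair 6 (-0.55, 0.0362) and Hlf without pair 5 (0.25, 0.0465). Each time the pair left out was the only one with the opposite sign, so these are not given as calls. Rorb, at 0 to 6.93 normalized counts, was below the minimum for testing.

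Per1 and Per2 are also targets of glucocorticoid receptor and of CREB or serum signals, and genes of those responses were set beside them. All 7 tested genes of the glucocorticoid list had estimates above 0 with a median of 0.13, and none passed with or without the block. Dusp1, a MAP kinase phosphatase, was higher in 6 of 6 pairs (0.27, adjusted p = 0.0626 with the block) and the transcription factor gene Klf9 in 5 of 6 (0.19, 0.089). Of the 8 immediate early genes, 7 had estimates above 0 with a median of 0.13, and none passed (lowest adjusted p = 0.185 with the block). The medians over the members and over the other clock genes were 0.03 and 0.06, and that over all genes -0.00. Between pairs, 10 of the 21 other clock genes, 6 of the 7 glucocorticoid genes and 0 of the 8 immediate early genes differed across the 6 pairs, beside 29.6% of all genes. The 8 immediate early genes included 5 with an unadjusted p under 0.05 in that test, beside 6175 of the 13792 genes tested.

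The response to ablation was also compared between the library sets, pairs 1, 3 and 5 against pairs 4, 6 and 7. In the interaction test 0.00725% of all genes passed and no member did; 7.88% of all genes had an unadjusted p under 0.05, as did Per3. The response of Per3 was 0.47, 0.12 and 0.16 in pairs 1, 3 and 5 and -0.09, 0.03 and -0.28 in pairs 4, 6 and 7, a difference of -0.36 (95% confidence interval -0.62 to -0.11, unadjusted p = 0.00896, adjusted p = 0.539). For Per1 the difference was -0.01 (-0.31 to 0.30) and for Dbp -0.09 (-0.39 to 0.22). Of the 8 immediate early genes, 5 had an unadjusted p under 0.05 in the interaction test, 4 with a difference above 0 and 1 below. The median difference over the 8 was 0.42, and none passed (lowest adjusted p = 0.267).

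Genes with a pattern like that of Dbp were listed over the 12 libraries, which are 6 pairs and share the step at pair 3. The highest Pearson correlations of log2 values were those of Dstyk (r = 0.97), Slco4c1 (0.95), Inafm2 (0.95), Rbbp9 (0.95) and Gm20186 (0.94), and the lowest those of Polr3e (-0.95), Gpn1 (-0.95), Fubp1 (-0.94), Pwp1 (-0.93) and Hpdl (-0.93). Among the members, Nr1d2 (0.88), Tef (0.84), Nr1d1 (0.82) and Per3 (0.75) were on the positive side and Cry1 (-0.82) on the negative. Without the dishes of pair 3, the values were 0.58 for Tef, 0.39 for Per3, -0.01 for Nr1d2, -0.16 for Nr1d1 and -0.12 for Cry1. Those of the 5 most like genes were then 0.31 (Inafm2) to 0.66 (Dstyk), and those of the 5 least like -0.66 (Fubp1) to -0.28 (Pwp1). The likeness of Nr1d1, Nr1d2 and Cry1 to Dbp thus rested on pair 3, while Tef and Per3 had lower but positive values over the other 10 dishes.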

How the data were processed

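Bulk RNA was sequenced in 12 libraries (6 ablation, 6 control). Per the study's methods, 150 ng of RNA went into stranded poly(A) libraries, and nf-core's RNA-seq workflow mapped and counted the reads on GENCODE mouse genes; the submitters' processing notes name GRCm38.p6, bcl2fastq and DESeq2. The signal values used are normalized counts that the authors made by dividing each library's read counts by a DESeq2 size factor. The deposited table also holds the authors' own comparison (log2 fold changes, standard errors, Wald statistics and p-values), which was not used. Whole reads could be recovered in 9 libraries, where they summed to 23631212 to 29775699; in 3 libraries the size factor was too close to 1 for the rule applied, so limma replaced a count test as the main test and edgeR served as an alternative.

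A gene entered the tests with 10 or more normalized counts in 6 or more libraries (13792 of 55401 listed; 28534 had any count). Tests were run on log2(normalized count + 1) with limma 3.58.1 (eBayes with trend and robust; R 4.3.3) and, for recovered reads, edgeR 4.0.16; Benjamini-Hochberg adjustment ran over all genes tested (threshold 0.05). Fold changes are on this scale. The scripts were tested on simulated data. The batch of the study's design is not defined further and was equated with the library set (the library numbers form 2 runs), and the pair was fitted as a block in its place. Same-numbered dishes shared passage, culture day and date, and their deviations from the group means correlated at r = 0.62, 0.49, 0.21, 0.32, 0.38 and 0.33 in pairs 1, 3, 4, 5, 6 and 7. In every pair but pair 4, the dish of the same number gave the highest correlation. Controls 4, 6 and 7 have titles that contain the word ablation; they were grouped by their treatment label, and the exchange was tried as an alternative. All 10 members, the other lists and the promoter motifs, and the 5 genes most and least like Dbp by Pearson r, were named; members and lists were chosen with earlier results of these data known. Cell type markers were 8 lists. A result for 1 listed gene is not reported here.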

Additional observations from a re-analysis of the deposited data

Results flagged for a closer look

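Of 62 groups tested (31 clock genes, 6 ablation and 6 control dishes each), 5 had a dish far from the rest by Dixon's criterion, where chance gives about 1 in 20; 3 of the 5 were in pair 3. Cry1 was at 1315 normalized counts in control 3, against 666 to 879 in the other controls. Dbp was at 444 in control 3, against 1224 to 1386. Arntl was at 1459 in ablation 3, against 876 to 1082. Outside pair 3, Csnk1d, which encodes a kinase that phosphorylates PER proteins, was at 5864 in ablation 1, against 4743 to 5147, and Fbxw11, which encodes a ubiquitin ligase subunit, was at 3888 in control 5, against 3423 to 3465.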

How the results depend on the processing

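Pair contrasts of all 10 members kept their direction and side of the threshold under the 90 alternative values of each contrast. For ablation, 209 of 240 alternative values did, and 1 (Per1, pair block without a filter, 0.27) newly passed. In the pair contrasts, leaving out another pair, dropping the filter or plain eBayes cannot move the estimate. There the direction was fixed in advance and only the p-value could change. The count of genes called for ablation, 0 with the library set, was 150 with the pair block, 3 with no filter, 356 with the block and no filter (1 member), 168 with the block and quantile normalization, 0 with the block and plain eBayes, 3 with the block and edgeR on complete pairs, and with the block 177, 87, 8, 70, 106 and 141 without pair 1, 3, 4, 5, 6 and 7. With pairs 4, 6 and 7 exchanged it was 0 (665 at an unadjusted p under 0.05), and Per1 was at 0.00 and Per2 at 0.06. The other estimates that changed sign lay near 0. With the pairs exchanged, Clock was at -0.05, Nr1d1 at 0.05 and Dbp at 0.04. With quantile normalization Cry2 was at 0.02, without and with the block. With edgeR on 9 libraries Cry2 was at 0.02, Nr1d1 at 0.09 and Dbp at 0.11, and on complete pairs with the block Cry2 at 0.05 and Clock at -0.03. With a pair left out, with or without the block, Per3 ranged from -0.01 to 0.14, Cry2 from -0.04 to 0.02, Clock from -0.03 to 0.06, Dbp from -0.06 to 0.03 and Tef from -0.00 to 0.07.

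Genes differing between pairs numbered 4083, and 863 with plain eBayes (5 members; Per2 and Per3 were lost) and 2212 to 4140 with a pair left out (2371 without pair 1, 2212 without pair 3). Per2 was also lost without pair 1 (adjusted p = 0.112) or pair 5 (0.056), Cry2 passed without pair 6 (0.0434) and Clock with no filter (0.0448). Plain eBayes gave 1726 genes in place of 2911 for pair 3 against pair 1, 0 in place of 2 for pair 5 against pair 4 and 11 in place of 254 for pair 7 against pair 6. For pair 5 against pair 4, no filter gave 49, quantile normalization 1 and leaving out a pair 3 to 13. For the response by library set, 1 gene passed, and 53 with no filter, 0 with plain eBayes, 0 without the replicate block (231 at an unadjusted p under 0.05) and 0 to 7 with a pair left out. There the Per1 difference was 0.00 with quantile normalization and -0.10 to 0.14 with a pair left out (0.10 without pair 1); that of Cry2 fell to -0.04 without pair 6, and that of Dbp was -0.24 to 0.01. The causes were not tested. With the filter on low counts, the pair block changed the call of no member.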
